A study of Mus musculus with 10 samples.

Results

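The genes described here are p53 target genes, read in cultured mouse lung fibroblasts. The list of 10 was given by symbol: Mdm2, Perp, Zmat3, Ccng1, Bax, Bbc3, Pmaip1, Trp53inp1, Sesn1 and Gdf15. Of these, 8 had a probe set with a single gene name in the tables used and were measured, out of 18193 genes in all, and Bax and Gdf15 were not analysed here. Each gene was read by its brightest single-gene probe set, and its other probe sets served as a check. There were 5 arrays of carcinoma-associated fibroblasts (CAF) and 5 arrays of normal lung fibroblasts, called biological replicates by the titles. Cells of both kinds came from mouse lungs and were grown out in 10% serum over 10 to 14 days, then replated for a night before RNA was taken. The strain, age and genotype of the mice, the tumour model and any pooling of animals are not given in the sources used here. All CAF arrays and normal arrays 4 and 5 carry the code prefix ls, and normal arrays 1 to 3 the prefix vs, whose meaning the labels do not state.

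The protein p53 is a transcription factor that is stabilised by DNA damage and other stress, binds paired response elements in DNA and switches on genes that stop the cell cycle, start apoptosis, repair DNA or adjust metabolism. Mdm2 is both a target of p53 and the ubiquitin ligase that marks p53 for destruction, so its transcript is part of a feedback loop. In fibroblasts in culture the pathway is known for its part in growth arrest and senescence.

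The promoters of 2 of the targets whose levels moved together over the arrays, Mdm2 and Ccng1, are shown with the first of 2 listed for Cdkn1a, the classic arrest gene of p53, and with the second promoter window of Sesn1, a target whose deviations had r = -0.120 with those of Mdm2. Each is the RefSeq window of 300 bases, 250 before and 50 after the start, on mouse assembly GRCm38.p6, written 5′ to 3′ on the gene's strand. Capitals mark matches of all 10 bases to the consensus half-site of the p53 response element, which is the same on both strands.
Mdm2, chr10:117710709-117711008, minus strand: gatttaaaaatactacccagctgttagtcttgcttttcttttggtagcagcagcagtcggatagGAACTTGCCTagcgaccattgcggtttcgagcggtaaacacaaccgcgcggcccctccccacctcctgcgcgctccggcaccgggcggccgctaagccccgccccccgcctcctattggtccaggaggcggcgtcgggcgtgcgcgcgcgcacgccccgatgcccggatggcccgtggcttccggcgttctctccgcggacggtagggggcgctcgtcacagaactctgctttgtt
Ccng1, chr11:40755237-40755536, minus strand: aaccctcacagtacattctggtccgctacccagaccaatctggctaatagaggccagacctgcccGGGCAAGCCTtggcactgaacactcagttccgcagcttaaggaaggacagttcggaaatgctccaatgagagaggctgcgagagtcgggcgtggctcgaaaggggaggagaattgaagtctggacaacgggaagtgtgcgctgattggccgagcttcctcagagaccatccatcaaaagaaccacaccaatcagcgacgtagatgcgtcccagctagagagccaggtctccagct
Cdkn1a, chr17:29090729-29091028, plus strand: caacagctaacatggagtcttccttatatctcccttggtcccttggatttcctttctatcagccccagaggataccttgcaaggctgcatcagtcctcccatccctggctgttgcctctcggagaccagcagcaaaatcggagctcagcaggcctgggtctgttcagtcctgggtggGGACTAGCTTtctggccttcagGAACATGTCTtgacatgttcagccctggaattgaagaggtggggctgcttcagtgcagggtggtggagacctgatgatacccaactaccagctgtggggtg
Sesn1, chr10:41887189-41887488, plus strand: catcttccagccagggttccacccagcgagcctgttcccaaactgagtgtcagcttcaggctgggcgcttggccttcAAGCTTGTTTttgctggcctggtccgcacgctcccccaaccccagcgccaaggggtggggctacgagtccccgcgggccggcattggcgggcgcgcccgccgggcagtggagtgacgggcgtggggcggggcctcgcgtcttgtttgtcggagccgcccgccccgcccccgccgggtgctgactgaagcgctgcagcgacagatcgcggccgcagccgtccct
Mdm2, Ccng1 and this Sesn1 window each held 1 match, and this Cdkn1a window held 2, at most 13 bases apart. The second window of Cdkn1a (chr17:29093519-29093818) and the first of Sesn1 held 0. All listed windows of the measured target Bbc3 and of the unmeasured Gdf15 held 0 as well. The windows shown are thus all ones with a match. Of the 10 listed genes, 6 had a promoter window, and 4 of them (Mdm2, Ccng1, Sesn1 and the unmeasured Bax) held a half-site in at least 1 window. The same was true of 2582 of 27025 genes with a window (9.55%). A pair of half-sites 0 to 13 bases apart was present in 24 of 32851 windows (0.0731%). A match describes the letters and does not show binding.

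Values are log2 expression after robust multi-array averaging (RMA), which puts all arrays on a common scale. The array medians were 6.73 to 6.74 for CAF and 6.76 to 6.80 for normal arrays. The 75th percentiles went the other way, at 9.22 to 9.30 for CAF and 9.05 to 9.13 for normal arrays. Pearson correlations between arrays over all probe sets were 0.983 to 0.992 within CAF, 0.944 to 0.991 within normal and 0.953 to 0.993 between the groups. The closest array did not always carry the same group label: CAF 2 was closest to normal 5 (0.993), normal 1 to CAF 1 and normal 2 to CAF 4. Fibroblast markers were bright in both groups, with list means of 12.67 to 14.05 in CAF and 12.71 to 14.53 in normal arrays and Col1a2, Vim and Fn1 the brightest. Macrophage markers were bright too, with list means of 10.19 to 12.70 in CAF and 9.29 to 12.68 in normal arrays, led by Lyz2, Tyrobp and Csf1r, so the cultures did not read as fibroblasts alone. Lymphocyte, endothelial and epithelial list means stayed at 5.95 to 6.98 in CAF and 6.06 to 7.19 in normal arrays, while mesothelial markers ran from 7.21 to 10.00 in CAF and from 5.87 to 11.57 in normal arrays. In cultures of mixed cells, fewer cells of a type and less RNA per cell cannot be told apart.

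Comparing CAF with normal fibroblasts asks whether p53 target genes are expressed at another level in fibroblasts from tumours. None of the 8 measured targets passed limma's test over all genes (adjusted p under 0.05): 0 rose, 0 fell and 8 did not pass, where 137 of 18193 genes were called (0.753%), 0.561% higher and 0.192% lower in CAF. The differences leaned upwards, with 6 of 8 positive and a median log2 difference of 0.64, against 42.7% positive and a median of -0.04 over all genes. Without genes of a mean under 6, the median was -0.008 over all genes and 0.638 over the targets. With arrays centred on their medians, these were 0.002 and 0.68. The background of all genes was not matched for brightness, so the part of brightness was not tested. At an unadjusted p under 0.05, 2 of 8 were higher in CAF, Mdm2 and Perp, and 0 were lower, where 10.5% of all genes were higher and 11.8% lower. The exact two-sided permutation test also gave 2 genes at an unadjusted p under 0.05, where 4070 of 18193 genes had one. It gave 0 after adjustment. Its lowest possible p, 0.00794, came to an adjusted p of 0.111 over all genes, so no gene could pass. Mdm2 was the one target whose groups did not overlap, where 7.16% of all genes had groups apart, 2.97% higher and 4.19% lower in CAF.

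**Figure D1:**
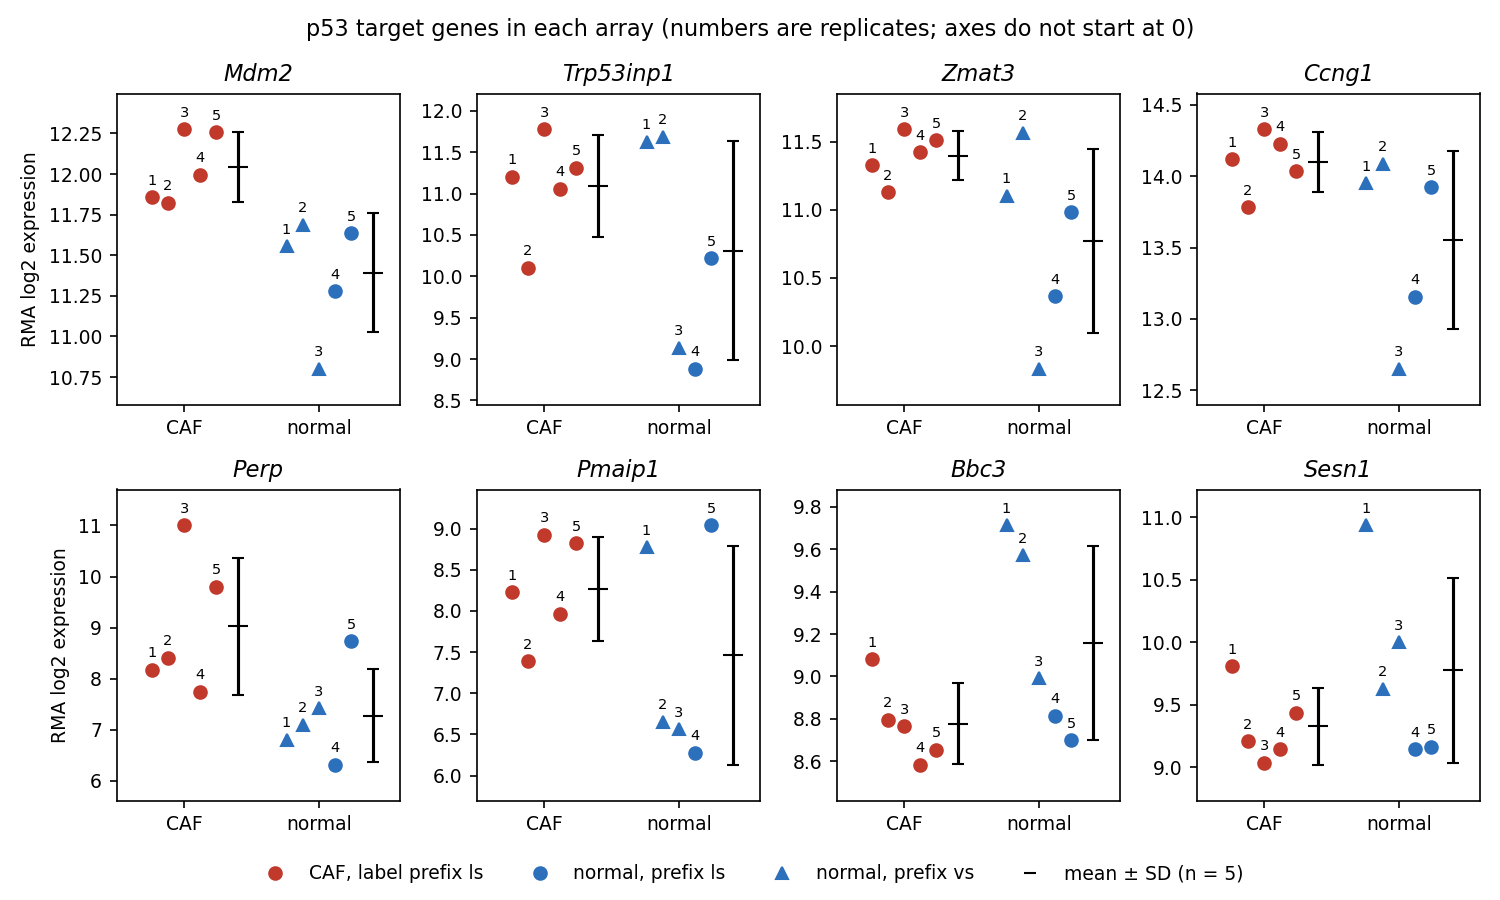
RMA log2 expression of the 8 measured targets on each array, CAF left and normal right, with replicate numbers, label prefix by marker shape, and mean ± SD (n = 5) beside the points. All 5 CAF points of Mdm2 lie above the 5 normal points, while normal arrays 3 and 4 are the lowest for Mdm2, Trp53inp1, Zmat3 and Ccng1.

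Mdm2 and Trp53inp1 feed back on p53 itself. Mdm2 read 11.86, 11.82, 12.28, 11.99 and 12.26 on CAF arrays 1 to 5, against 11.55, 11.69, 10.80, 11.28 and 11.64 on normal arrays 1 to 5. The lowest CAF array lay above the highest normal array. The log2 difference was 0.65 ± 0.18 (SE, 95% interval 0.25 to 1.05, 1.57-fold, limma adjusted p = 0.0900), and the exact permutation p was 0.00794, the lowest possible with 5 arrays a group. Its second probe set had a difference of 0.85 ± 0.19 and also did not overlap between the groups, and its dimmest probe set, near the bottom of the scale, had -0.04 ± 0.07. Mdm2 differed by 0.59 ± 0.17 when set against normal arrays of prefix ls alone, and by 0.69 ± 0.22 against those of prefix vs.

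Trp53inp1, a stress protein that promotes p53 phosphorylation and autophagy, was far more variable. It read 11.20, 10.11, 11.78, 11.06 and 11.31 on CAF arrays 1 to 5, against 11.62, 11.69, 9.14, 8.88 and 10.22 on normal arrays 1 to 5. Normal arrays 1 and 2 lay above every CAF array but CAF 3, and normal arrays 3 and 4 lay below every CAF array. The difference was 0.78 ± 0.59 (95% interval -0.55 to 2.11, adjusted p = 0.459). Set against prefix ls it was 1.54 ± 0.49 and against prefix vs 0.27 ± 0.63, without normal 3 or normal 4 it was 0.49 or 0.42, and its dimmer probe set had 0.22 ± 0.32. With array weights the difference was 1.25, and over the mean of both probe sets 0.50.

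Zmat3 and Ccng1 are targets tied to growth control. Zmat3, an RNA-binding zinc finger protein, read 11.33, 11.13, 11.59, 11.42 and 11.51 on CAF arrays 1 to 5, against 11.10, 11.57, 9.83, 10.37 and 10.98 on normal arrays 1 to 5. Normal array 2 alone reached into the CAF range, and the difference was 0.63 ± 0.29 (95% interval -0.01 to 1.27, adjusted p = 0.233). Ccng1, cyclin G1, which acts with the phosphatase PP2A on Mdm2, read 14.12, 13.78, 14.33, 14.23 and 14.03 in CAF, against 13.95, 14.09, 12.65, 13.15 and 13.92 in normal fibroblasts. Here normal arrays 1, 2 and 5 lay within the CAF range and 3 and 4 below it (difference 0.55 ± 0.27, 95% interval -0.06 to 1.15, adjusted p = 0.264). The other probe sets of Ccng1 had differences of 0.60 ± 0.29 and 0.59 ± 0.22. Without normal array 3, the difference was 0.39 for Zmat3 and 0.32 for Ccng1. Their CAF values were close together, with SDs of 0.18 and 0.21, against 0.68 and 0.62 in normal fibroblasts.

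The differences of the apoptosis genes were not of 1 sign. Perp, a tetraspan membrane protein that is both a death effector and a part of desmosomes, had the largest difference of the 8, 1.75 ± 0.66 (95% interval 0.28 to 3.22, 3.37-fold, adjusted p = 0.163; exact permutation p = 0.0476). It read 8.18, 8.41, 11.00, 7.75 and 9.80 on CAF arrays 1 to 5, against 6.80, 7.10, 7.43, 6.32 and 8.73 on normal arrays 1 to 5. CAF arrays 3 and 5 were far above the others, and normal array 5 reached above CAF arrays 1, 2 and 4. Without CAF array 3, the difference was 1.26. The epithelial marker list, read because Perp is an epithelial gene as well, averaged 6.53 ± 0.33 in CAF and 6.73 ± 0.29 in normal arrays (SD, n = 5), and on CAF array 3 it stood at 6.52. Its brightest members were the keratins Krt18 and Krt8, also made by mesothelial cells, and Epcam. Krt18 ran from 6.69 to 10.93 in CAF and from 5.67 to 11.35 in normal arrays, and Epcam averaged 7.81 ± 0.16 in CAF and 8.23 ± 0.13 in normal arrays. The part of such cells in the Perp values was not tested.

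Pmaip1, which encodes the BH3-only protein Noxa, split the normal group. It read 8.23, 7.39, 8.93, 7.96 and 8.82 in CAF, against 8.78, 6.65, 6.57, 6.28 and 9.04 in normal fibroblasts. Normal arrays 1 and 5 were as high as the top CAF arrays, and normal arrays 2, 3 and 4 lay below every CAF array (difference 0.80 ± 0.60, 95% interval -0.53 to 2.14, adjusted p = 0.449), and without normal array 4 the difference was 0.51. Bbc3, which encodes the BH3-only protein Puma, read 9.08, 8.80, 8.76, 8.58 and 8.65 in CAF, against 9.71, 9.57, 8.99, 8.81 and 8.70 in normal fibroblasts. Its difference was -0.38 ± 0.21 (95% interval -0.84 to 0.08, adjusted p = 0.302), with -0.24 without normal array 1 and -0.17 with array weights. High values came from the normal arrays with prefix vs: the difference was 0.02 ± 0.14 with the ls normal arrays alone and -0.65 ± 0.18 with the vs ones.

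Sesn1, a sestrin that restrains mTORC1 and limits peroxides, showed the same split by prefix. It read 9.81, 9.21, 9.04, 9.14 and 9.44 in CAF, against 10.93, 9.63, 10.00, 9.15 and 9.16 in normal fibroblasts. Normal array 1 stood above all other arrays (difference -0.45 ± 0.33, 95% interval -1.18 to 0.28, adjusted p = 0.439), and without it the difference was -0.16, and with array weights -0.11. Sesn1 differed by 0.17 ± 0.20 from normal arrays 4 and 5 and by -0.86 ± 0.30 from normal arrays 1 to 3. Its 3 other probe sets had differences of -0.48 to -0.09. The negative differences of Bbc3 and Sesn1 were thus seen against the vs normal arrays. Against the ls ones their differences were smaller than the SE. When the model held a term for the prefix, their differences were again 0.02 and 0.17. This is the same estimate and no further check, because all CAF arrays are ls. With 2 ls and 3 vs normal arrays, an effect of the prefix and chance spread among normal cultures cannot be told apart.

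**Figure D2:**
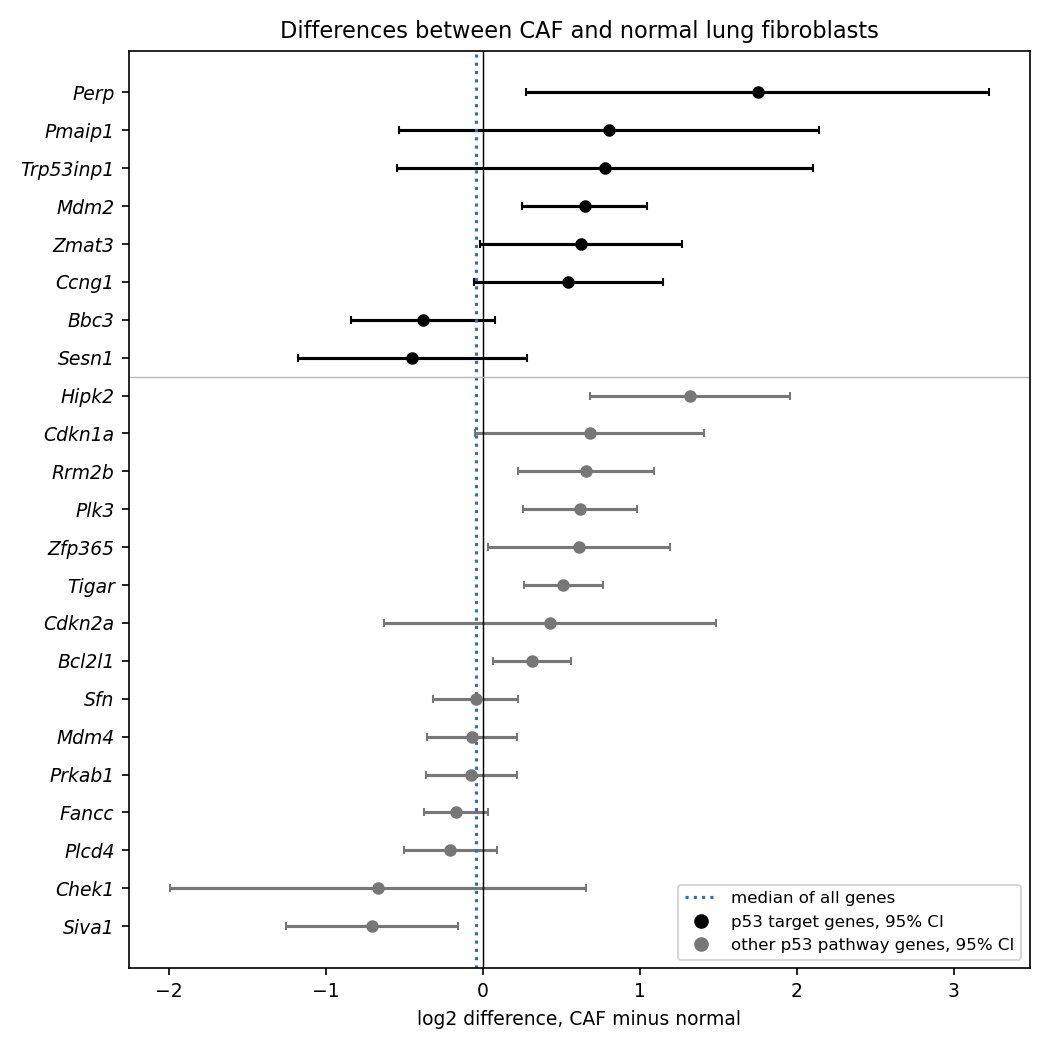
Log2 difference, CAF minus normal, with the 95% interval of the limma fit, for the 8 targets (black) and the named genes of the wider pathway (grey); the dotted line is the median of all genes. The intervals of Mdm2 and Perp among the targets exclude 0, and Bbc3 and Sesn1 have the negative differences.

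Of 77 other p53 pathway genes listed as context, 71 were measured. By limma 0 rose, 0 fell and 71 did not pass, and 14 had an unadjusted p under 0.05 (19.7%, against 22.3% of all genes), 13 of them higher in CAF (18.3%, against 10.5% of all genes) and 1 lower, where 11.8% of all genes were lower. The exact permutation test gave 12 at an unadjusted p under 0.05, where 4070 of 18193 genes had one. It gave 0 after adjustment, which no gene could pass in this test. Of the 71, 49 (69.0%) had a positive difference, against 42.7% of all genes, and the median was 0.14, against -0.04. This background too was not matched for brightness, so the part of brightness was not tested. Groups did not overlap in 3 genes higher in CAF (4.23%, against 2.97% of all genes) and 0 lower (against 4.19%); these were Plk3, Tigar and Polk. Polk, a translesion DNA polymerase with a difference of 0.76 ± 0.26 (adjusted p = 0.141), is named after its values were seen.

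Among p53 and its regulators, 8 of 13 differences were positive. Trp53 itself was not analysed here. Mdm4, the partner of Mdm2 that masks the activation domain of p53, had -0.07 ± 0.13 (adjusted p = 0.791), and its 3 other probe sets disagreed, at -0.33, 0.19 and -0.34. Cdkn2a, whose Arf product sequesters Mdm2, had 0.43 ± 0.47 (adjusted p = 0.618). The Cdkn2a difference was 0.80 with the ls normal arrays alone and 0.18 with the vs ones, and leaving out 1 array gave 0.19 (without normal 3) to 0.75 (without normal 1), with 0.24, 0.27 and 0.70 without CAF 4, normal 4 or CAF 2. Hipk2, a kinase that phosphorylates p53, read 11.77, 11.09, 11.90, 12.43 and 11.62 in CAF, against 10.48, 11.19, 9.80, 10.30 and 10.42 in normal fibroblasts. Only normal array 2 reached the lowest CAF array. Its difference, 1.32 ± 0.28 (adjusted p = 0.0619), was the closest of the 71 to the threshold, and 7 of its 8 probe sets were positive, with 0.76 over their mean. Chek1, a checkpoint kinase, had -0.67 ± 0.59 (adjusted p = 0.530). The Chek1 difference was -1.52 with the ls normal arrays alone and -0.10 with the vs ones, -0.40, -0.42 and -0.41 without CAF 3, normal 3 or normal 4, and -1.01 without normal 2.

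Among cell cycle and growth genes, 12 of 13 differences were positive, with a median of 0.27. Cdkn1a, which encodes the cyclin-dependent kinase inhibitor p21, read 13.35, 12.89, 13.80, 13.24 and 13.49 in CAF, against 13.14, 13.63, 11.77, 12.30 and 12.53 in normal fibroblasts. Normal arrays 3, 4 and 5 lay below every CAF array and arrays 1 and 2 within the CAF range (difference 0.68 ± 0.33, adjusted p = 0.249; second probe set 0.83 ± 0.34). Plk3, a stress kinase, had 0.62 ± 0.16 (adjusted p = 0.0860) and 0.40 with the ls normal arrays alone, and Sfn, an epithelial arrest gene, -0.04 ± 0.12 (adjusted p = 0.860). Of the repair genes, Rrm2b, the p53-dependent subunit of ribonucleotide reductase, had 0.66 ± 0.19 (adjusted p = 0.103) with all 4 probe sets positive. Fancc, of the Fanconi anaemia complex, had -0.17 ± 0.09 (adjusted p = 0.294).

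Among apoptosis genes of the wider list, 9 of 14 differences were positive. Bcl2l1, which encodes the survival protein Bcl-xL, had 0.31 ± 0.11 (adjusted p = 0.148), and Siva1, a pro-apoptotic adaptor, -0.70 ± 0.24 (adjusted p = 0.139). Of the metabolic genes, Tigar, a fructose bisphosphatase that lowers glycolytic flux, had 0.51 ± 0.11 (adjusted p = 0.0637), but its dimmer probe sets had -0.02 and 0.00, and the mean of all of them 0.165. Prkab1, a subunit of AMP-activated kinase, had -0.07 ± 0.13 (adjusted p = 0.775). In the remaining group, Zfp365 had 0.61 ± 0.26 (adjusted p = 0.203) and the phospholipase Plcd4 -0.21 ± 0.13 (adjusted p = 0.377), with Plcd4 at -0.12 without normal 2. The small differences of Mdm4, Sfn and Prkab1 changed by over 1.5 times without several of the single arrays, between -0.143 and -0.002 for Mdm4, -0.145 and 0.040 for Sfn and -0.171 and -0.003 for Prkab1.

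Several targets varied together among the cultures. Of the 8 targets, 7 had the larger SD in normal fibroblasts, as did 71.1% of all genes. Deviations from the group means were correlated over the 10 arrays for all 28 pairs, with an exact permutation test within groups and Benjamini-Hochberg adjustment over the pairs. In 25 pairs r was positive and 4 pairs passed at an adjusted p under 0.05. The shares over all pairs of genes were not computed, so whether these counts are particular to p53 targets was not tested. Correlation was common on these arrays: Bbc3 had r = 0.477 with Zmat3, and 5195 of 18192 genes followed Zmat3 more closely. The 4 pairs that passed joined Zmat3 with Ccng1, Mdm2 with Zmat3, Mdm2 with Ccng1 and Zmat3 with Trp53inp1.

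Zmat3 and Ccng1 were the closest pair (Pearson r = 0.960, exact permutation p = 0.000764, adjusted p = 0.0107; Spearman rho = 0.964, exact permutation p = 0.00347, adjusted p = 0.0486). Of 18192 other genes, 20 followed Zmat3 more closely than Ccng1 did. For Mdm2 and Zmat3, r was 0.910 (exact permutation p = 0.000347, adjusted p = 0.00972) and rho 0.891 (exact p = 0.00111, adjusted p = 0.0311), and 52 genes followed Mdm2 more closely than Zmat3 did. For Mdm2 and Ccng1, r was 0.888 (exact permutation p = 0.00653, adjusted p = 0.0457) and rho 0.818 (exact p = 0.0117, adjusted p = 0.110), and 105 genes followed Mdm2 more closely than Ccng1 did. For Zmat3 and Trp53inp1, r was 0.880 (exact permutation p = 0.00507, adjusted p = 0.0457) and rho 0.855 (exact p = 0.0310, adjusted p = 0.217), and 488 genes followed Zmat3 more closely than Trp53inp1 did. Leaving out the 2 arrays farthest from the median of the first gene gave r = 0.944, 0.760, 0.657 and 0.930 for these 4 pairs in this order. Within the 7 arrays of prefix ls, r was 0.933, 0.891, 0.691 and 0.944. The 3 vs arrays are too few for a value of their own.

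With single arrays left out, r of these 4 pairs stayed between 0.722 and 0.976, though calls were lost. Zmat3 with Ccng1 had an exact permutation adjusted p of 0.0535 without CAF 2, normal 1 or normal 2, and Mdm2 with Zmat3 had 0.0535 without normal 1. Mdm2 with Ccng1 lost its call without any 1 of CAF 2, 3 and 4 and normal 1 to 5 (exact permutation adjusted p of 0.0632 to 0.156). Zmat3 with Trp53inp1 lost it without any 1 of CAF 2 to 5 and normal 1, 2 and 5 (exact permutation adjusted p of 0.0632 to 0.255). Bbc3 and Sesn1 had r = 0.766 (exact permutation p = 0.0428, adjusted p = 0.171) and did not pass, and neither passed with any of the other targets. Perp and Pmaip1 did not pass with any other target either.

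**Figure D3:**
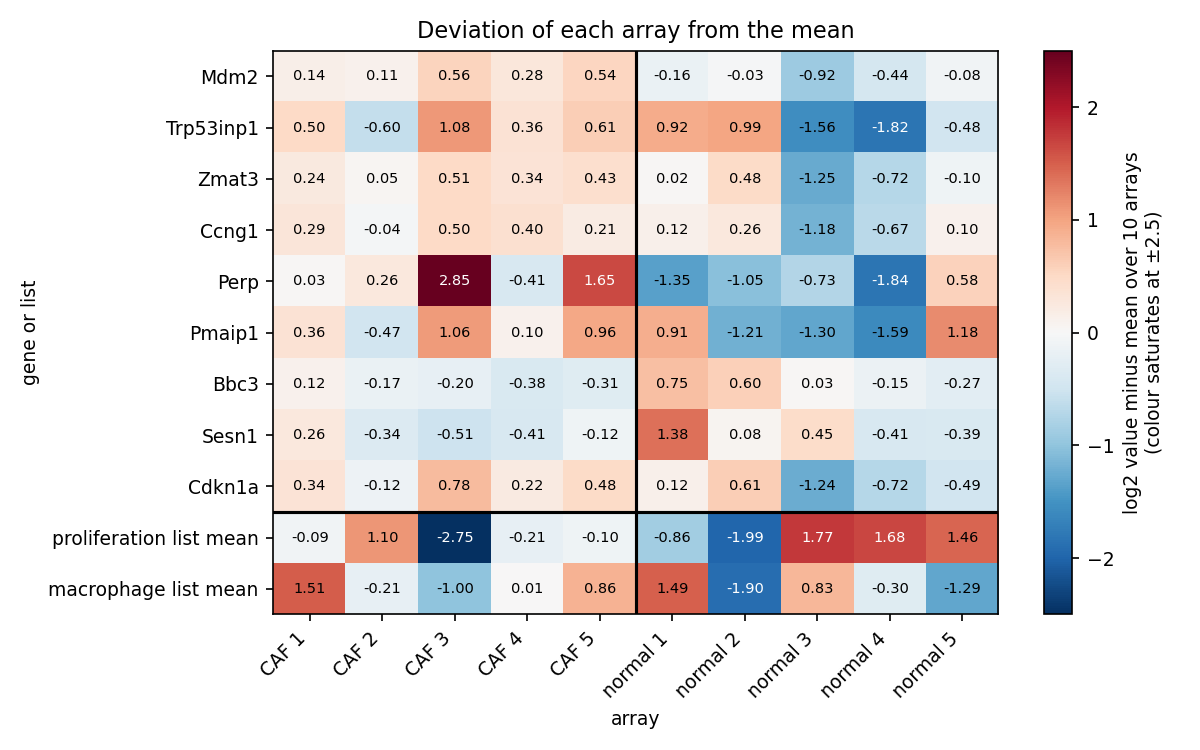
Log2 value of each array minus the mean over the 10 arrays, for the 8 targets, Cdkn1a and the means of the proliferation and macrophage lists (rows), with CAF arrays left and normal arrays right. Mdm2, Trp53inp1, Zmat3, Ccng1 and Cdkn1a are low on normal arrays 3 and 4, where the proliferation list averages 11.62 and 11.53, and high on CAF array 3, where it averages 7.10.

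Proliferation genes were read on the same arrays. The list (15 of 16 measured, among them Rrm2, Cdk1 and Top2a) averaged 9.76, 10.95, 7.10, 9.64 and 9.75 on CAF arrays 1 to 5, against 8.99, 7.86, 11.62, 11.53 and 11.31 on normal arrays 1 to 5. It was lowest on CAF 3 and normal 2 and highest on normal 3 and 4. By limma 0 of the 15 rose or fell, with 0 at an unadjusted p under 0.05, 14 negative differences and a median of -0.89. Its within-group correlation was computed with each of the 8 targets, as was that of the macrophage list, 16 relations in all, of which 1 passed. Trp53inp1 had r = -0.878 with the proliferation list (exact permutation p = 0.00285, adjusted p = 0.0456) and rho = -0.903 (exact p = 0.00201, adjusted p = 0.0322). Leaving out the 2 arrays farthest from the Trp53inp1 median gave r = -0.852, and the 7 ls arrays gave -0.716. The call was lost without CAF 2, 3 or 4 or normal 3, 4 or 5 (exact permutation adjusted p of 0.0611 to 0.144).

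Zmat3, Ccng1 and Mdm2 had r = -0.757, -0.704 and -0.656 with the proliferation list (exact permutation adjusted p = 0.0996, 0.153 and 0.171). Without normal array 1, Zmat3 had r = -0.736 and passed (exact permutation adjusted p = 0.0306). With the macrophage list, the largest r was that of Sesn1, 0.783 (exact permutation p = 0.0187, adjusted p = 0.0996). Sesn1 was highest on normal 1, where the macrophage list stood at 12.68, and its highest CAF value was on CAF 1, where the list stood at 12.70. The part of growth rate or of macrophage RNA in the differences between CAF and normal fibroblasts was not tested.

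**Figure D4:**
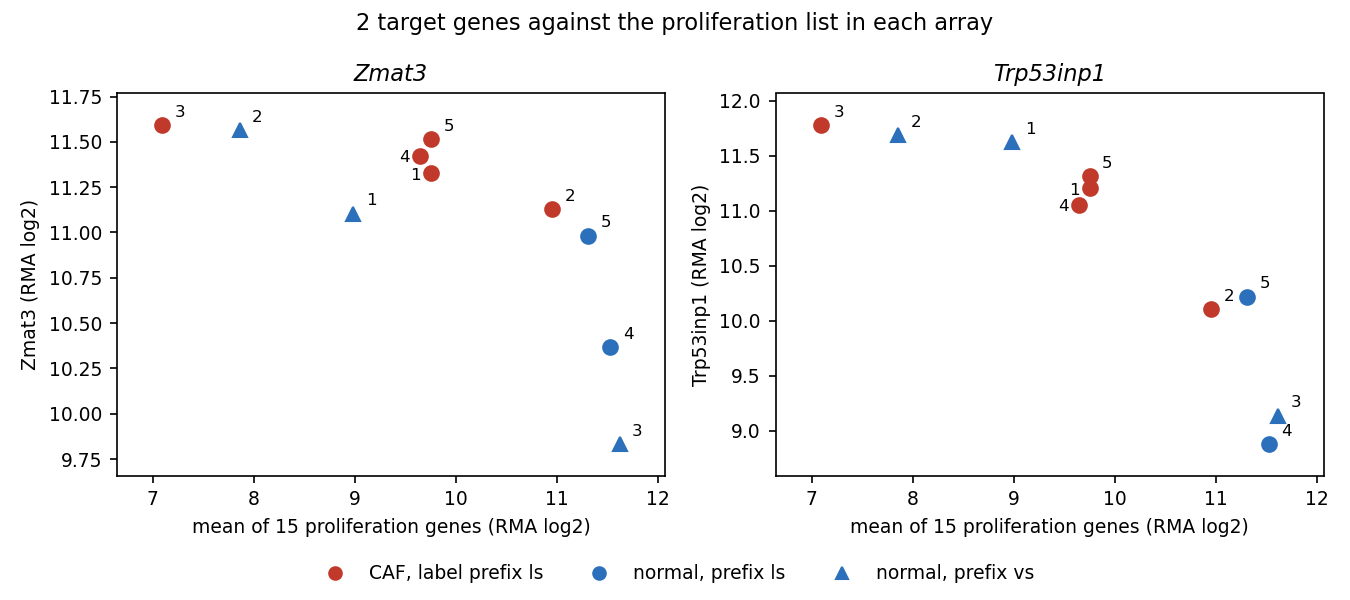
Zmat3 (left) and Trp53inp1 (right) against the mean of the 15 measured proliferation genes, in RMA log2, 1 point per array with its replicate number, CAF red and normal blue, label prefix by marker shape. CAF 3 and normal 2 sit at the low-proliferation, high-target end and normal 3 and 4 at the other.

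Genes of the ATF4 amino acid response, a stress programme that shares some targets with p53, had list means of 9.94 to 10.27 in CAF and 9.65 to 10.99 in normal arrays, with 0 of 12 called by limma and 0 at an unadjusted p under 0.05. Over all 10 arrays, the genes outside the lists whose pattern was most like the mean of the 8 targets were Atat1 (Pearson r = 0.964), Fjx1 (0.961), Flcn (0.958), Washc5 (0.957) and Chmp2b (0.956). These values are a description, over arrays that share their normalisation.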

How the data were processed

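Total RNA (6 ug per labelling) was hybridised as biotin-labelled cRNA to 1-colour Affymetrix Mouse430_2 arrays. The authors' deposited table holds log2 values. The submitters' processing notes name RMA, Affymetrix Expression Console and limma, without stating versions. RMA makes values relative to the rest of the array and gives no detection call, so dim differences are less certain. After 64 control probe sets were left out, 34945 of 45037 probe sets had 1 gene name, 932 had several and 9160 were unnamed in the platform table. Symbols were updated through Entrez numbers, found for 34741, to the gene table of GRCm38.p6.

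Genes (18193, brightest probe set each) entered a linear model of group alone (limma 3.58.1 under R 4.3.3; lmFit, then eBayes, all 10 arrays, Benjamini-Hochberg over all genes, called at adjusted p under 0.05). The fit was tested on simulated data. Differences are CAF minus normal in log2, ± the moderated SE. Unless another test is named, adjusted p-values are from this fit. Precision is limited by the number of arrays, 5 per group. All array columns were used. The alternatives were normalisation, a filter on dim genes, probe set choice, label prefix, replicate block, prior, array weights, single arrays left out and an exact permutation test.

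The targets, the lists and the tests were chosen with earlier results of these data known. Genes named were all targets, 3 fixed pathway genes (Mdm4, Cdkn2a and Cdkn1a), the gene with the smallest p in each direction for each role of the wider list, the 3 brightest of the marker lists and the 5 genes closest to the targets' mean, passing over clone names, predicted and sex-linked genes. The within-group correlations were chosen after the data had been seen.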

Additional observations from a re-analysis of the deposited data

Results flagged for a closer look

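On CAF array 4, Plk3 read 8.77, apart from the other CAF arrays, which lay between 9.16 and 9.25. Among 46 groups of 5 arrays examined, 1 had an array apart by Dixon's criterion, and chance alone gives about 1 in 20 groups.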

How the results depend on the processing

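The 8 targets were tested under 22 alternatives. None of the 8 was called under 21 of them. With array weights 1 was called (Mdm2, 0.66, adjusted p = 0.0405), where 1597 of 18193 genes were called. The median difference over the targets stayed between 0.44 and 0.70. Of 176 target differences under these alternatives, 171 kept their direction and their side of the threshold. Some alternatives change the test and not the difference, so no sign could turn there. These include probe sets tested singly, the dim gene filter, the replicate block and the exact test. With the label prefix as a term and against the ls normal arrays, the sign turned for Bbc3 (0.02 in both), Sesn1 (0.17 in both) and Mdm4 (0.026 in both), and that of Mdm4 also with array weights (0.028). Each of these turned differences was smaller than its SE. The prefix term and the ls comparison give the same estimate, because all CAF arrays are ls. Sfn turned to 0.067 against the vs normal arrays, and ran from -0.15 to 0.04 without 1 array. The cause was not tested.

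Of the 71 other pathway genes, 2 were called with arrays centred on their medians (Hipk2 and Tigar), 7 with array weights and 0 to 1 without 1 array. The 1 was Hipk2, without CAF 2 or without normal 2, at adjusted p of 0.0494 and 0.0458. Over all genes, 285 were called with centred arrays, 75 without dim genes, 429 with probe sets tested singly (more features), 46 with trend and robust, 1597 with array weights and 1 against the ls normal arrays. Without 1 array the count ran from 0 to 166: 0 without CAF 1, CAF 3, CAF 5 or normal 3 (3378, 3538, 3003 and 3852 at an unadjusted p under 0.05 by limma), 1 without CAF 4, 24 without normal 1, 63 without normal 4 and 46 without normal 5. With the label prefix as a term 0 genes passed limma's test (2649 before adjustment at p under 0.05), and the exact permutation test called 0 (4070). The lowest possible p of the exact test could not pass after adjustment. Calls were 102 higher and 35 lower, against 43 and 49 after quantile normalisation and 250 and 35 with centred arrays.

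With the replicate number as a block, 0 genes (3017 before adjustment at p under 0.05) and 0 of the 8 targets passed limma's test. Same-numbered arrays had correlations of deviations of 0.339, -0.528, -0.476, -0.056 and -0.086, which shows no common positive relation by number. The titles do not say whether same-numbered cultures were paired, and these values cannot settle it. Quantile normalisation, centring and averaged probe sets, added after the data were seen, lost none of the 5 called within-group correlations.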
